A study of Mus musculus with 18 samples.

Results

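Rela, Nfkbiz, Il1rap, Peli3, Unc93b1 and Clcf1, 6 genes of NF-kB and interleukin 1 (IL-1) signalling, were followed in the mouse line MC3T3-E1, preosteoblasts that were first isolated from newborn calvaria, under osteogenic medium. The 6 genes were taken by symbol from a table of 40620 rows and occupied 7 rows of it, since Clcf1 had a second row that held no reads in any library. Il1rap and Nfkbiz lie on chromosome 16 and the other 4 on chromosome 19. The cells carried 1 of 3 lentiviral short hairpin constructs, shRcor2-18 or shRcor2-20, both directed at the corepressor gene Rcor2, or the control shScramble. Every construct was labelled wild type in genotype and had 2 samples at each of 0h, 24h and 7d, which gives 9 groups. Osteogenic medium held 10 nM dexamethasone, 50 µg/ml ascorbic acid and 5 mM beta-glycerophosphate in medium with 10% serum, so the agents of the medium and the time in culture cannot be told apart. The protocols name harvests after 24 hours and after 14 and 21 days of differentiation and no day 7, so the time meant by 7d is uncertain; times are given as the titles state them. Whether replicate samples came from separate cultures is not in the labels. The p-values therefore cover sample-to-sample spread that may be technical.

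IL-1 binds its receptor together with the accessory chain encoded by Il1rap, and the signal passes through adaptor proteins, kinases and ubiquitin ligases to release NF-kB dimers into the nucleus. Rela encodes p65, the NF-kB subunit with the main activation domain. In bone, NF-kB is best known for its need in osteoclasts, and in osteoblast lineage cells its activation by inflammatory cytokines is known to restrain matrix formation. Peli3 encodes a Pellino ubiquitin ligase of the IL-1 and Toll-like receptor pathways, and Unc93b1 encodes the chaperone that carries nucleic acid-sensing Toll-like receptors to endosomes. Nfkbiz encodes the atypical inhibitor protein IkB-zeta, a nuclear coregulator that IL-1 itself induces. Clcf1 encodes a cytokine of the IL-6 family that signals through the ciliary neurotrophic factor receptor and gp130.

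Promoters of 3 of the 6 genes were found in the RefSeq promoter table (build GRCm38.p6), and they are shown because an NF-kB motif in a promoter is the feature a reader of this pathway would look for first. Each line gives the 250 bases before an annotated start, 5′ to 3′ on the gene's own strand, with GC boxes (GGGCGG on either strand) in capitals. The windows are chr19:5637291-5637540 on the plus strand for Rela, chr16:26581455-26581704 on the plus strand for Il1rap and chr19:4943128-4943377 on the minus strand for Peli3.
Rela: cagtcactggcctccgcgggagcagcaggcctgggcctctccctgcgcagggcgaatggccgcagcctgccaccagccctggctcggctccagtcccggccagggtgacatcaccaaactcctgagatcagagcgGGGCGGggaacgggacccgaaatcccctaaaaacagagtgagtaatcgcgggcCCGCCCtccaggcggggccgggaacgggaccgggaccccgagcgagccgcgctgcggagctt
Il1rap: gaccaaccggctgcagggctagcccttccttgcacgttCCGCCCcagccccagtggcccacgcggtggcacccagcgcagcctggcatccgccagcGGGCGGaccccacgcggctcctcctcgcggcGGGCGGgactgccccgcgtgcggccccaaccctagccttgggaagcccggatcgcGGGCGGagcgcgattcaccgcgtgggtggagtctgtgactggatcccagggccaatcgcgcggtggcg
Peli3: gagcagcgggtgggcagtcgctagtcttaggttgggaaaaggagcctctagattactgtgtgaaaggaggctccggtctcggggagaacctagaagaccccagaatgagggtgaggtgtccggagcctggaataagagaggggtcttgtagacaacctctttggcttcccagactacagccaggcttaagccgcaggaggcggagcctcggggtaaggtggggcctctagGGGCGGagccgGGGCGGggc
None of the 3 windows held the NF-kB consensus motif of 10 bases on either strand, nor did the window of a second annotated start of Peli3. Of 32817 mouse promoters of the same length, 7.25% held it. The Rela window held 2 GC boxes, the Il1rap window 4 and the Peli3 window 2, and 32.7% of all promoters held at least 1. The Il1rap window also held 1 CCAAT box (CCAAT on either strand), as did 33.8% of all promoters. No AP-1 site (TGACTCA or TGAGTCA), which 4.46% of all promoters held, and no TATA box (TATAAA), which 12.4% held, was found in any of the windows. Matches were counted by letters alone, and the letters do not show whether a factor binds.

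The 3 sample 1 libraries at 0h had counts in 11942 to 14355 rows, against 16555 to 18277 rows in the other 15, and were left out of the main values. Each construct thus kept 1 library at 0h. Tests against 0h took the spread within a group from 24h and 7d and assumed that 0h varies alike. The 15 libraries used held 3504808 to 6139315 counted reads each. Some libraries of different constructs stood closer to each other than the 2 samples of a construct did. At 24h and at 7d the closest pairs were the first samples of shRcor2-18 and shScramble (pair A), the first sample of shRcor2-20 with the second of shScramble (pair B), and the second samples of both hairpins (pair C). Counts of the 2 libraries in such a pair gave a chi-square per degree of freedom of 3.05 to 7.25, and counts of the 2 samples of a group gave 14.3 to 37.1. At 0h it was 2.80 between the 2 hairpin libraries and 27.7 to 31.1 between either of them and shScramble. The labels do not give these pairs, and their part in differences between constructs was not tested. Over much of the table a row's name did not go with its reads. Of 298 genes of ribosomal, proteasome and respiratory chain families outside the stretches of chromosomes 16 and 19 that hold the 6 genes, 16.1% averaged 20 CPM (counts scaled to the library total) or more, whereas 94.1% of 17 such genes in those stretches did. The row of Rcor2 lies outside these stretches and so does not check the knockdown. It held 195 to 268 CPM in the 15 libraries, with a log2 difference of 0.10 ± 0.06 between hairpins and shScramble (SE; edgeR's quasi-likelihood test, adjusted p = 0.832). The defining osteoblast genes also lie outside the stretches, so the cell label could not be checked with them. In the stretches, 7 genes of stromal cells and matrix together held 8465 to 9814 CPM at 0h. Their sum was 7152 to 7992 CPM at 24h and 6529 to 8682 CPM at 7d. At 7d against 0h, 4 of the 7 were called lower and 1 higher by edgeR's test. Of all rows, 2.49% were called lower and 3.27% higher.

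Around each of the 6 genes, the 5 coding genes on either side were compared with the same level of 20 CPM. It was reached by 9 of 10 neighbours of Clcf1, 8 of 10 of Nfkbiz, 8 of 10 of Unc93b1, 7 of 10 of Peli3 and 7 of 10 of Rela. Only 4 of 10 neighbours of Il1rap reached it. Trp63, which encodes a transcription factor of epithelial cells and lies 5 genes before Il1rap, averaged 345 CPM. It is thus uncertain whether the Il1rap row holds its own gene's reads. Levels beside other genes were uneven too, such as Ctsf at 0.0165 CPM and Actn3 at 82.8 CPM before Peli3. A neighbour may also be silent in these cells, so the counts of neighbours do not settle this for any of the 6 rows.

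**Figure D1:**
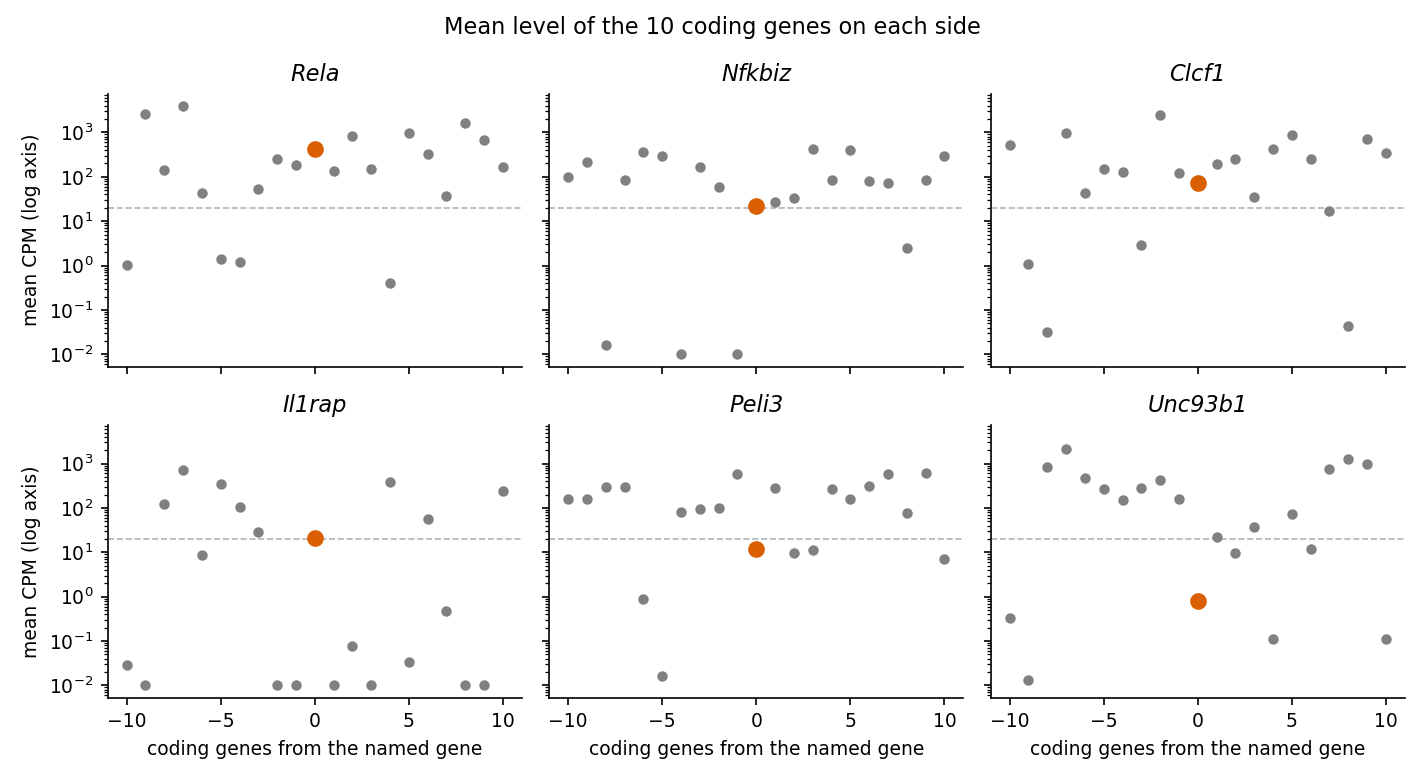
Mean CPM over 15 libraries (log axis, values below 0.01 drawn at 0.01) of each of the 6 genes (orange) and of the 10 coding genes on each side of it in chromosome order (grey). The dashed line marks 20 CPM, which 9 of the 10 nearest neighbours of Clcf1 and 4 of the 10 nearest neighbours of Il1rap reached.

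The 6 genes covered a wide range of levels. Per kilobase of annotated exon, over 15 libraries, the mean level was 135.9 ± 16.2 CPM for Rela, 18.7 ± 6.60 for Clcf1, 4.30 ± 1.22 for Nfkbiz, 2.59 ± 0.74 for Peli3, 1.88 ± 0.36 for Il1rap and 0.27 ± 0.16 for Unc93b1 (SD, n = 15). Peli3 and Il1rap, next to each other in this order, did not differ beyond their spread. In reads, the range ran from 1330 to 2931 per library for Rela, 121 to 495 for Clcf1, 39 to 156 for Nfkbiz, 57 to 135 for Il1rap and 28 to 100 for Peli3. Unc93b1 had 1 to 9 reads per library and 54 in all, too few to pass the filter on low counts. The other 5 genes were tested. Reads of an antisense gene, Gm20319, that overlaps Il1rap, and of a coding gene, AC109138.7, and a microRNA gene, Gm26115, that overlap Clcf1 may be shared with them, since the treatment of strand is not given in the sources used here.

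Nfkbiz, the IL-1-induced coregulator, was the 1 gene of the 5 tested that passed edgeR's test between times: it fell at 7d relative to 0h in the average of the 3 constructs. In that comparison 3 of the 5 had an unadjusted p under 0.05, beside 20.5% of all rows. DESeq2 called the same 3, Nfkbiz (adjusted p = 0.00156), Clcf1 (0.00459) and Rela (0.00645), beside 1427 of 12930 rows. Nfkbiz stood at 34.8, 27.6 and 30.4 CPM in the 0h libraries of shRcor2-18, shRcor2-20 and shScramble. At 24h it ranged from 16.98 to 26.3 CPM with a median of 21.8 CPM, and at 7d from 11.4 to 20.7 CPM with a median of 16.8 CPM. Every 24h and every 7d library lay below the lowest 0h library, and the 24h and 7d libraries overlapped. The mean was 16.7 ± 3.07 CPM at 7d (SD, n = 6) and 30.95 ± 3.65 CPM at 0h (SD, n = 3), a log2 change of -0.90 ± 0.18 (SE; 95% interval -1.30 to -0.50) or 1.86-fold lower (edgeR's quasi-likelihood test, Benjamini-Hochberg adjusted p = 0.0235). In this comparison 5.76% of 12930 tested rows were called at an adjusted p under 0.05, and 2.49% of the 12930 were called lower, as were 6.34% of the 489 tested rows of the stretches. At 24h the log2 change from 0h was -0.50 ± 0.18 (adjusted p = 0.295), and at 7d the change from 24h was -0.39 ± 0.15 (adjusted p = 0.211).

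The Nfkbiz call rested on few 0h libraries. The adjusted p became 0.126 without the shScramble library at 0h, 0.0677 without that of shRcor2-18 and 0.0512 without that of shRcor2-20, and it also exceeded 0.05 without the first shRcor2-18 sample (0.0597), the first shRcor2-20 sample (0.0525) or the second shRcor2-20 sample (0.0546) at 7d. With the sample number within a construct as a replicate block, the log2 change was -0.97 (adjusted p = 0.0935), and with the closest libraries summed it was -0.87 (adjusted p = 0.0702). With no filter on low counts it was -0.89 (adjusted p = 0.0504). With the 3 omitted 0h libraries included, it was -1.55 (adjusted p = 0.0133). Of 12 genes of blood cells in the stretches, the summed level was 165 to 202 CPM at 0h, 173 to 202 CPM at 24h and 217 to 306 CPM at 7d, most of it Cd80. Without Cd80 the sum was 6.96 to 10.8, 8.26 to 20.7 and 24.0 to 73.1 CPM at these times, with Cd86 and Cd200r1 at 0 in all 15 libraries. Most of this sum at 7d was 1 gene, Btla, at 44.0 CPM on average at 7d and 2.66 CPM at 0h. The part of these genes in the result was not tested. Fewer expressing cells and less RNA per cell cannot be told apart in these bulk samples.

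**Figure D2:**
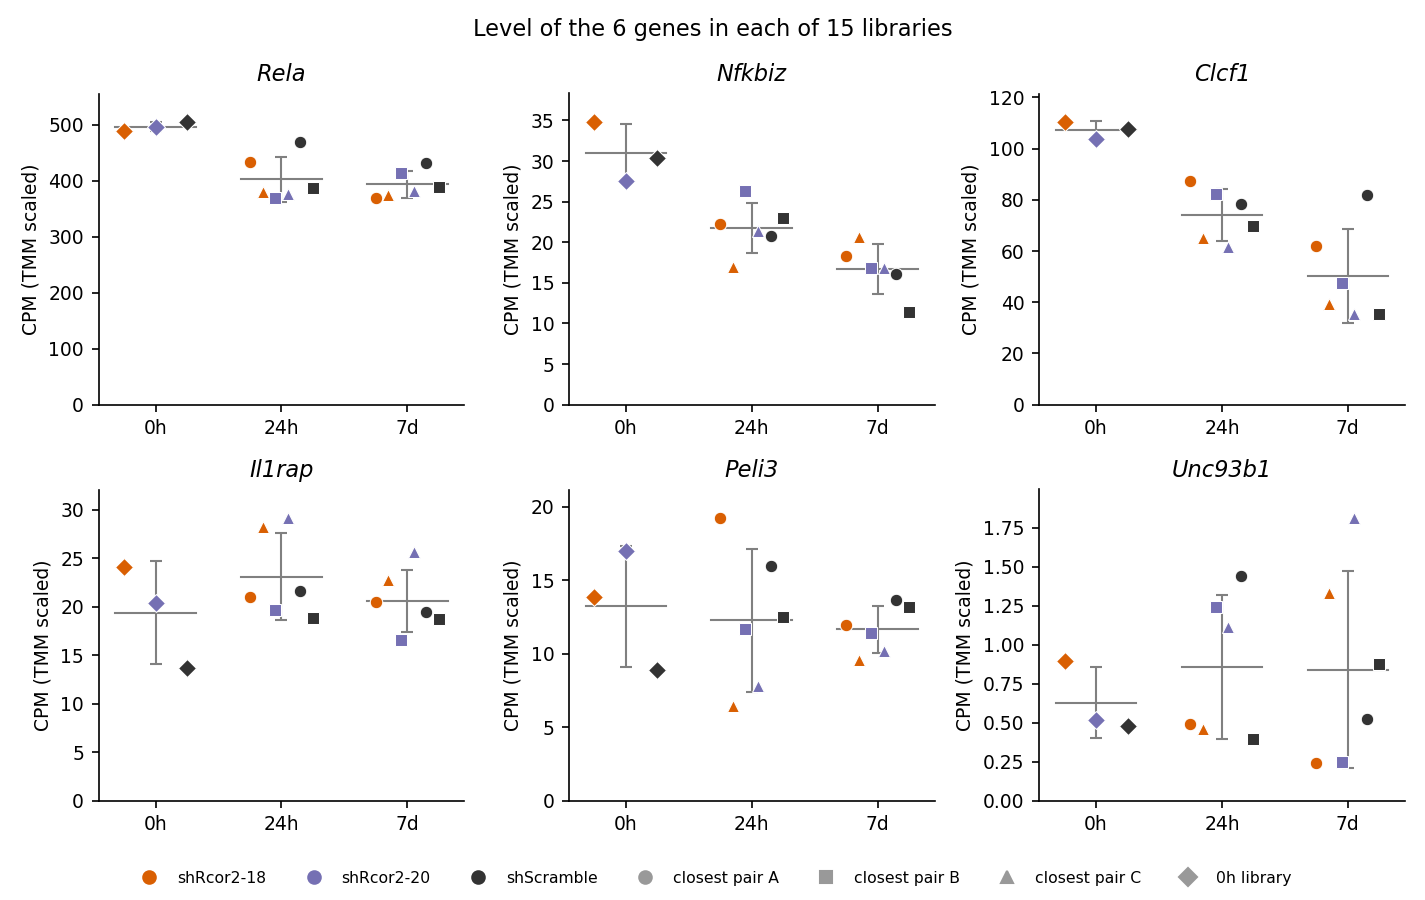
CPM after TMM scaling (vertical axes start at 0) of each gene in each of the 15 libraries at 0h, 24h and 7d, with colour for construct, shape for the closest-library pair, and grey lines and bars for the mean and SD. The 7d libraries of Nfkbiz lie between 11.4 and 20.7 CPM, below all 3 libraries at 0h, and Unc93b1 stays below 2 CPM throughout.

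Clcf1, the IL-6 family cytokine, had the largest log2 difference of the 5 tested genes at 7d against 0h but did not pass the test. Its levels at 0h were close together, at 110.5 CPM in shRcor2-18, 103.7 CPM in shRcor2-20 and 107.5 CPM in shScramble. They ranged from 61.7 to 87.3 CPM at 24h, with a median of 74.2 CPM, and from 35.4 to 81.8 CPM at 7d, with a median of 43.4 CPM. All 24h and all 7d libraries lay below the 0h libraries, while 24h and 7d overlapped through the first shScramble and first shRcor2-18 samples at 7d. The mean was 50.2 ± 18.4 CPM at 7d (SD, n = 6) and 107 ± 3.44 CPM at 0h (SD, n = 3), and the log2 change was -1.11 ± 0.27 (95% interval -1.73 to -0.48, adjusted p = 0.0548 by the same test). At 24h the log2 change from 0h was -0.53 ± 0.27 (adjusted p = 0.533), and at 7d against 24h it was -0.57 ± 0.23 (adjusted p = 0.240). The 7d difference passed with the replicate block within a construct (log2 -1.43, adjusted p = 0.0352), with all 18 libraries (-1.75, adjusted p = 0.0118), and without the first shScramble sample at 7d (-1.35, adjusted p = 0.0162), the highest of that time. It also passed with DESeq2 (adjusted p = 0.00459), in the stretches alone (0.0125) and with no filter (0.0473), which makes 6 of 23 alternatives. It did not pass with the closest libraries summed (-1.08, adjusted p = 0.103). The fit of the stretches alone called 122 of 489 rows at 7d against 0h.

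Rela, the p65 subunit, moved within a narrow range. It held 488, 496 and 505 CPM at 0h in shRcor2-18, shRcor2-20 and shScramble, 370 to 469 CPM at 24h with a median of 383 CPM, and 370 to 431 CPM at 7d with a median of 386 CPM. Every later library lay below the lowest 0h library, and the 24h and 7d ranges nearly coincided. The log2 change was -0.31 ± 0.09 at 24h against 0h (95% interval -0.51 to -0.10, adjusted p = 0.189), where 1.86% of rows were called. It was -0.34 ± 0.09 at 7d against 0h (95% interval -0.54 to -0.13, adjusted p = 0.0665) and -0.03 ± 0.07 at 7d against 24h (adjusted p = 0.920), where 2.34% were called. The 7d change from 0h passed with DESeq2 (-0.33, adjusted p = 0.00645), in the stretches alone (-0.34, 0.0304) and with all 18 libraries (-0.68, 0.0417), 3 of 23 alternatives. The adjusted p over all alternatives ranged from 0.00645 to 0.197. In the stretches alone, 122 of 489 rows were called in this comparison. Between 24h and 0h none of the 5 genes passed edgeR's test, and 2 had an unadjusted p under 0.05, beside 11.5% of all rows. DESeq2 called 1 of the 5, Rela, beside 582 of 12930 rows. Between 7d and 24h none passed, and 2 had an unadjusted p under 0.05, beside 17.8% of all rows. DESeq2 called 0 of the 5 there, beside 1100 of 12930 rows. In all, 3 of the 5 tested genes had all 24h libraries below all 0h libraries, and the same 3 had all 7d libraries below them. Taken at each time alone, the share of all tested rows was 3.68% at 24h and 7.78% at 7d, and in the stretches it was 9.20% and 14.5%. The share of rows that lay below at both times was not counted.

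**Figure D3:**
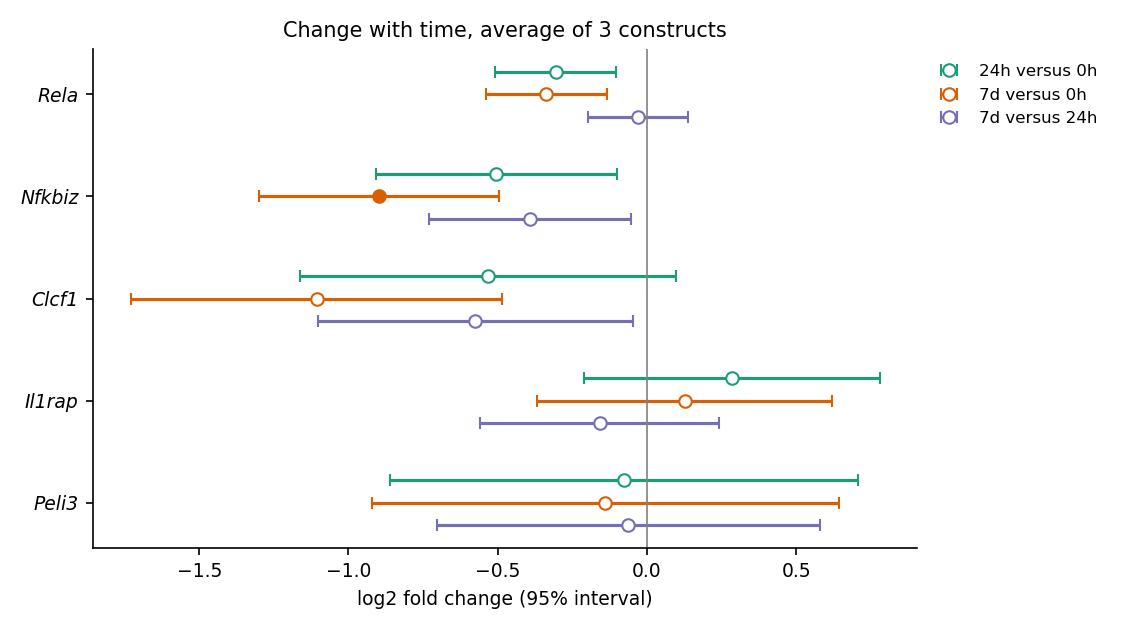
Log2 fold change with its 95% interval (horizontal axis) of the 5 tested genes between times, averaged over the 3 constructs; a filled point has an adjusted p under 0.05. The filled point is Nfkbiz at 7d against 0h, at -0.90, and the intervals of Il1rap and Peli3 include 0 in all 3 comparisons.

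On the receptor side of the pathway no change with time passed the test. Il1rap, the IL-1 receptor accessory chain, stood at 24.1, 20.4 and 13.7 CPM at 0h in shRcor2-18, shRcor2-20 and shScramble, between 18.8 and 29.2 CPM at 24h with a median of 21.3 CPM, and between 16.6 and 25.6 CPM at 7d with a median of 20.0 CPM. The ranges of the 3 times overlapped. Its log2 change was 0.28 ± 0.22 at 24h against 0h (95% interval -0.21 to 0.78, adjusted p = 0.720) and 0.13 ± 0.22 at 7d against 0h (95% interval -0.37 to 0.62, adjusted p = 0.836). These 2 values became -0.16 and -0.30 with all 18 libraries. Peli3, the Pellino ligase, stood at 13.8, 17.02 and 8.86 CPM at 0h in the same constructs, between 6.42 and 19.3 CPM at 24h with a median of 12.1 CPM, and between 9.57 and 13.7 CPM at 7d with a median of 11.7 CPM. The 7d libraries were the closest together and lay inside the range of the 24h libraries. The log2 change of Peli3 was -0.14 ± 0.34 at 7d against 0h (95% interval -0.92 to 0.64, adjusted p = 0.909), an interval that leaves room for a difference in either direction. Unc93b1, the Toll-like receptor chaperone, averaged 0.63 ± 0.23 CPM at 0h (SD, n = 3), 0.86 ± 0.46 CPM at 24h and 0.84 ± 0.63 CPM at 7d (SD, n = 6 each). Its highest count, 9 reads, was in the first shScramble sample at 24h, and a change in it was not detectable at this depth.

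Between hairpins and shScramble, none of the 5 tested genes passed edgeR's test or DESeq2 at 24h, at 7d or over all times. Of the 5, 0 had an unadjusted p under 0.05, beside 2.73%, 3.46% and 6.49% of all rows in these 3 comparisons. Averaged over the 3 times, where 0.00773% of rows were called, the log2 difference of Il1rap was 0.38 ± 0.18 (95% interval -0.03 to 0.79, unadjusted p = 0.0647, adjusted p = 0.782). It was 0.43 ± 0.20 for shRcor2-18 (adjusted p = 0.860) and 0.33 ± 0.20 for shRcor2-20 (adjusted p = 0.892), comparisons that called 0.101% and 0.0387% of rows and that share the shScramble libraries. At 0h the single hairpin libraries held 24.1 and 20.4 CPM and the single shScramble library 13.7 CPM. At 24h the 4 hairpin libraries ranged from 19.6 to 29.2 CPM and the 2 shScramble libraries held 21.6 and 18.8 CPM, and at 7d they ranged from 16.6 to 25.6 CPM and held 19.5 and 18.7 CPM, so the groups overlapped at both times. The log2 difference over all times was 0.14 ± 0.15 for Nfkbiz, 0.04 ± 0.28 for Peli3, -0.09 ± 0.07 for Rela and -0.12 ± 0.23 for Clcf1. Their 95% intervals ran from -0.20 to 0.47, -0.60 to 0.68, -0.26 to 0.08 and -0.64 to 0.40, which leaves room for differences in either direction.

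**Figure D4:**
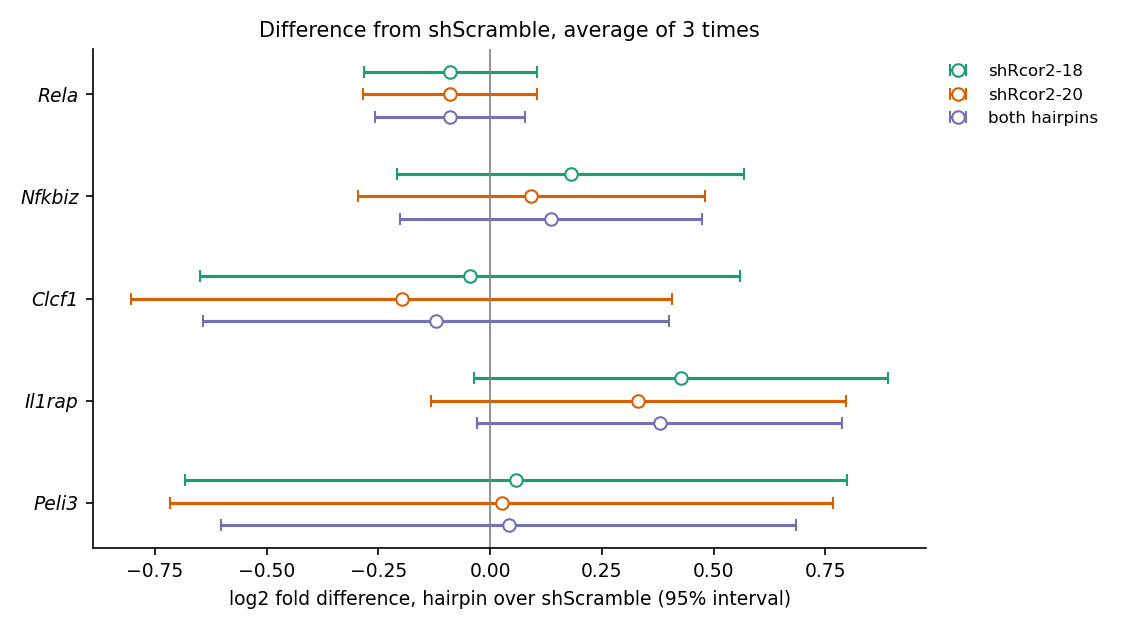
Log2 difference from shScramble with its 95% interval (horizontal axis) of the 5 tested genes for shRcor2-18, shRcor2-20 and both hairpins together, averaged over the 3 times. All points are open (adjusted p of 0.05 or more), all 15 intervals include 0, and Il1rap has the largest difference at 0.43 for shRcor2-18.

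At a single time the hairpin differences were no clearer. At 24h, where 0.0155% of rows were called, the largest log2 difference among the 5 genes was that of Peli3 at -0.35 ± 0.41. At 7d, where 0.0387% were called, Nfkbiz had the largest at 0.40 ± 0.23, from 20.7, 18.3, 16.9 and 16.8 CPM in the hairpin libraries, against 16.04 and 11.4 CPM in shScramble. The adjusted p was 1.00 for all 5 genes at each time. The change of the hairpin difference, 7d against 24h, called 0.0541% of rows and none of the 5 genes. It was 0.42 ± 0.31 for Nfkbiz and -0.35 ± 0.49 for Clcf1 (adjusted p = 1.00 for both). The Clcf1 value became 0.37 without the first shScramble sample at 7d.

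Levels of some of the genes at 24h or 7d lay together within the closest-library pairs, and others did not. Closeness was measured on rows of these same data, so what follows is a description only. At 24h Peli3 held 19.3 and 16 CPM in pair A, 11.7 and 12.5 CPM in pair B, and 6.42 and 7.79 CPM in pair C, so that the second sample of shRcor2-18 had about the level of the second sample of shRcor2-20 and less than its own first sample. Il1rap held 28.2 and 29.2 CPM in pair C at 24h, and 18.8 to 21.6 CPM in the other 4 libraries. At 7d pair C again held the highest values of Il1rap, 22.7 and 25.6 CPM, and the lowest of Peli3, 9.57 and 10.2 CPM. Clcf1 at 7d held 61.8 and 81.8 CPM in pair A, 47.4 and 35.4 CPM in pair B, and 39.4 and 35.6 CPM in pair C. Unc93b1 had its most reads at 7d in pair C, 6 and 8, where the other 4 libraries had 1 to 3. At 24h, however, it had 9 and 2 reads in pair A and 2 and 5 in each of pairs B and C. Rela at 7d had both its highest and its lowest level in pair A, 431 and 370 CPM. Nfkbiz at 7d held 11.4 and 16.9 CPM in pair B. Pair C holds no shScramble library, so the average of the hairpins contains it and that of shScramble does not.

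Across the 15 libraries, whose levels share the time course and the pairs, Nfkbiz and Clcf1 varied together with a Pearson r of 0.78, Rela and Clcf1 with 0.70, and Rela and Nfkbiz with 0.56 (log2 of CPM + 1, given as a description). The receptor chain Il1rap had r of -0.39 with Rela, -0.11 with Nfkbiz and -0.21 with Clcf1. Among 415 coding genes of the stretches at 20 CPM or more on average, the pattern most like Clcf1 was that of Pitpnm1 (r = 0.94), then P3h2 (0.90) and Fibp (0.87). For Rela the closest were Lrrc58 (0.85), Ehbp1l1 (0.83) and Bcl6 (0.82), and for Nfkbiz Sart1 (0.83), Lrrc58 (0.82) and Frmd8 (0.81). Il1rap was most like Ppp1r2 (0.75), Ube2v2 (0.74) and Acy3 (0.73), and Peli3 most like Golgb1 (0.79), Cryzl1 (0.78) and Ubald1 (0.74). No gene exceeded 0.58 with Unc93b1 (Pak2), whose counts were near 0.

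Of the other genes of these pathways on the 2 stretches, with genes known to be induced by IL-1 or NF-kB included, 22 were listed and 20 tested. At 24h against 0h 2 of the 20 rose and 1 fell, beside 1.47% of all rows called higher and 0.387% called lower. In the stretches, 1.43% of rows were called higher and 1.23% lower at 24h. An unadjusted p under 0.05 was found for 9 of the 20, beside 11.5% of all rows. DESeq2 called 5 of the 20, beside 582 of 12930 rows. At 7d against 0h 3 rose and 2 fell, beside 3.27% and 2.49% of all rows. In the stretches, 5.52% of rows were called higher and 6.34% lower at 7d. An unadjusted p under 0.05 was found for 12 of the 20 at 7d against 0h, beside 20.5% of all rows. DESeq2 called 7 of the 20, beside 1427 of 12930 rows. The median log2 change at 7d was -0.15 for the list and 0.07 for all rows. At 7d against 24h none of the 20 passed edgeR's test, and 7 had an unadjusted p under 0.05, beside 17.8% of all rows. DESeq2 called 2 of the 20, beside 1100 of 12930 rows. Between hairpins and shScramble over all times none passed, and 0 had an unadjusted p under 0.05, beside 6.49% of all rows. DESeq2 called 0 of the 20 there, beside 109 of 12930 rows. Of the 7 tested genes listed as known to be induced by IL-1 or NF-kB, Nfkbiz included, 3 rose and 3 fell at 7d, beside calls in either direction for 5.76% of all rows and 11.9% of the rows of the stretches. The list was put together by hand with earlier results of these data known. Socs1 is also on the list of IL-6 family and feedback genes, and Adamts5 on that of stromal and matrix genes. The count is thus a description of these genes only.

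Cebpd, a transcription factor of the acute phase response, rose to 153 to 205 CPM at 24h and 135 to 207 CPM at 7d, against 62.2 to 73.7 CPM at 0h. Its log2 change was 1.36 ± 0.14 at 24h (adjusted p = 0.00306) and 1.33 ± 0.14 at 7d (adjusted p = 0.00170). The later groups of Cebpd lay above 0h without overlap, as did 4.09% of all tested rows at 24h and 7.14% at 7d. Adamts1, a secreted metalloproteinase, ranged from 1806 to 2944 CPM at 24h and from 2696 to 4937 CPM at 7d, against 223 to 522 CPM at 0h, with log2 changes of 2.67 ± 0.27 (adjusted p = 0.00306) and 3.16 ± 0.28 (adjusted p = 9.02e-04). Socs1, which blocks cytokine receptor signalling through Janus kinases, averaged 42.6 ± 2.86 CPM at 7d (SD, n = 6) and 26.1 ± 4.18 CPM at 0h (SD, n = 3), a log2 change of 0.72 ± 0.14 (adjusted p = 0.0262). The Socs1 call was lost without any 1 of the 3 libraries at 0h (adjusted p = 0.0557 to 0.102) or of 4 of those at 7d, the first sample of each construct and the second of shRcor2-20 (0.0529 to 0.0600). It was also lost with the replicate block (0.120) and with no filter (0.0720), and the change was -0.12 with all 18 libraries. The 24h call of Cebpd was lost with the block as well (0.0604).

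The 2 other genes that fell, as Nfkbiz did, were Adamts5, an aggrecan-degrading metalloproteinase, and Fosl1, an AP-1 subunit. Adamts5 averaged 79.9 ± 7.93 CPM at 7d (SD, n = 6) and 205 ± 19.6 CPM at 0h (SD, n = 3), with a log2 change of -1.36 ± 0.13 (adjusted p = 0.00121), and at 24h the change was already -0.97 ± 0.13 (adjusted p = 0.00917). Fosl1 averaged 59.6 ± 19.9 CPM at 7d (SD, n = 6) and 169 ± 10.6 CPM at 0h (SD, n = 3), with a log2 change of -1.52 ± 0.31 (adjusted p = 0.0280). The Fosl1 call was lost without any 1 of the 3 libraries at 0h (adjusted p = 0.0539 to 0.137) or of the same 4 at 7d (0.0538 to 0.0699), and with the block (0.0673), while with all 18 libraries the change was -2.36. The block also ended the 24h call of Adamts5 (0.0689). With the closest libraries summed, the 24h calls of Adamts1 (adjusted p = 0.0654) and Adamts5 (0.115) and the 7d calls of Socs1 (0.101) and Fosl1 (0.0964) were lost. Cd80, the remaining measured gene of the group besides Nfkbiz, had a log2 change of 0.32 ± 0.13 at 7d that did not pass the test, and Cd86 had no reads.

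**Figure D5:**
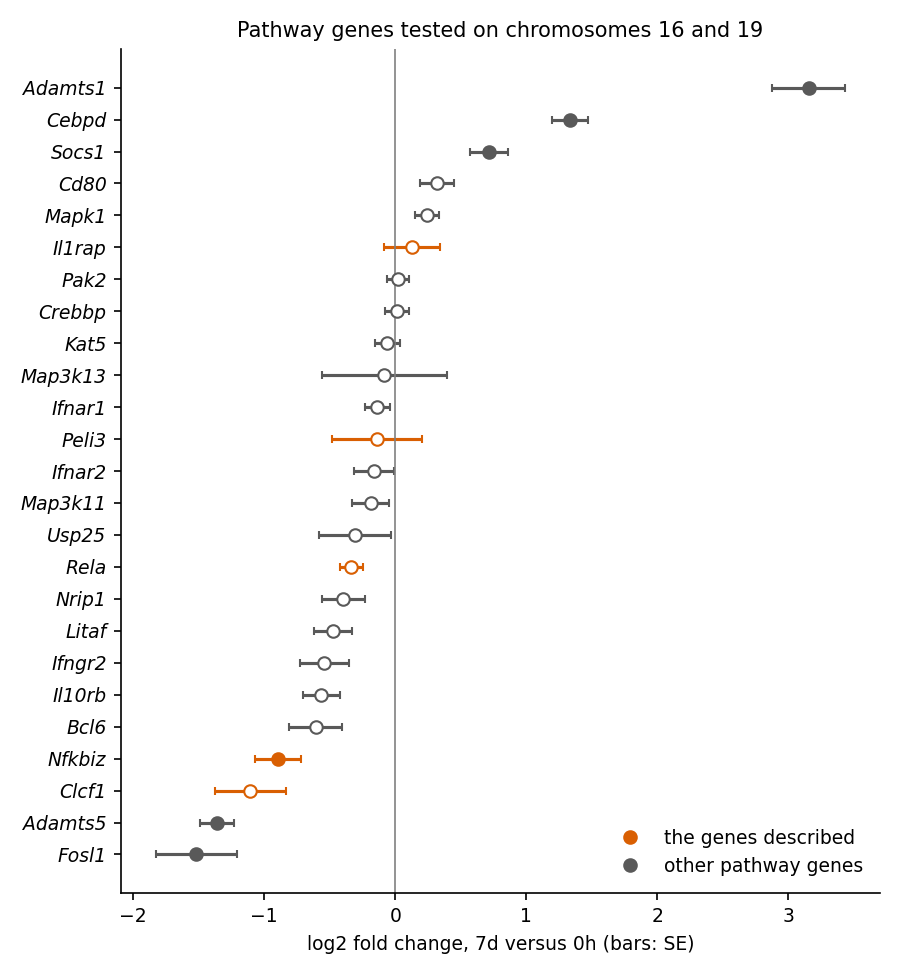
Log2 fold change at 7d against 0h with its SE (horizontal axis) of the 25 tested genes of the NF-kB, IL-1, IL-6 family and cytokine receptor lists on the stretches of chromosomes 16 and 19; orange marks the genes described here and a filled point an adjusted p under 0.05. The filled points above 0 are Adamts1, Cebpd and Socs1, and those below 0 are Nfkbiz, Adamts5 and Fosl1.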

How the data were processed

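RNA was sequenced from 15 libraries used here of 18, with 100 bp reads per the labels' protocols. The authors deposited raw counts per gene, with no normalization. The submitters' processing notes name FastQC, TopHat2 2.0.9, DESeq, DESeq2 and the build mm9. Gene identifiers are of a later build (97.4% are in GENCODE vM21), so the annotation served for names, order and exon length only, and the counting tool is not given in the sources used here. Groups come from the sample titles. The 6 genes, the gene lists, the stretches and the omission of the 3 libraries were chosen with earlier results of these data known. Named genes are the 6, pathway genes called between times and the 3 most alike per gene.

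All rows passing edgeR's filterByExpr (12930) were fitted with 9 group means, TMM scaling and robust quasi-likelihood tests (edgeR 4.0.16, R 4.3.3; 6 residual degrees of freedom), with p-values adjusted by Benjamini-Hochberg. CPM are TMM scaled and intervals are t-based per gene. Alternatives were other scaling, no filter, DESeq2 1.42.0, the stretches alone, all 18 libraries, replicate blocks, summed closest libraries and each library left out. The scripts were tested on simulated data.

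Pairing of sample numbers was checked by the correlation of deviations from group means between 24h and 7d. In the stretches (416 rows) it was 0.52, 0.49 and 0.47 for shRcor2-18, shRcor2-20 and shScramble, and over all 5044 rows at 20 CPM or more 0.10, 0.01 and -0.03, so every pair exceeded 0.1 in the stretches but not over all rows. Between constructs, in the stretches, same-numbered samples gave 0.60 and 0.45 (24h and 7d) for shRcor2-18 with shScramble, 0.43 and 0.22 for shRcor2-18 with shRcor2-20, and -0.20 and -0.19 for shRcor2-20 with shScramble, so not every pair exceeded 0.1.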

Additional observations from a re-analysis of the deposited data

How the results depend on the processing

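The fit with TMM called 240, 745 and 302 rows for 24h against 0h, 7d against 0h and 7d against 24h. DESeq2 called 582, 1427 and 1100, the stretches alone (489 rows) 28, 122 and 83, the replicate block within a construct 56, 432 and 169, and summed closest libraries 53, 253 and 0. With all 18 libraries 7d against 24h called 38. Without TMM the rows called higher and lower were 403 and 393 at 7d against 0h, beside 423 and 322 with it, and 130 and 220 at 7d against 24h, beside 149 and 153. For the hairpins over all times, at 24h and at 7d, shRcor2-18, shRcor2-20 and the change of the difference, the counts with TMM were 1, 2, 5, 13, 5 and 7. DESeq2 called 109, 30, 30, 73, 71 and 35, while the stretches alone and all 18 libraries called 0 in each. Without a filter the counts were 20 and 4 for the hairpins over all times and at 24h, 20 for shRcor2-18 and 18 for shRcor2-20, and with library size only 8 for the hairpins over all times. The replicate block across constructs called 7 rows for shRcor2-18 and 0 for shRcor2-20, and that within a construct 1 for the change of the difference. Apart from the calls named above, the blocks changed no call of the 6 genes or of the 5 pathway genes named. Without each library in turn, the 9 counts ranged over 126 to 231, 310 to 762, 120 to 307, 0 to 10, 2 to 12, 5 to 15, 8 to 19, 0 to 8 and 4 to 11.

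Of 53 changes and differences of single genes, 22 turned direction under at least 1 alternative and 23 kept direction and call under all. With all 18 libraries the log2 change of Il1rap was -0.16 at 24h and -0.30 at 7d against 0h, that of Socs1 at 7d -0.12, the hairpin difference of Peli3 -0.21 (-0.45 for shRcor2-20), and the shRcor2-18 difference of Clcf1 0.032. That of Peli3 was 0.0038 at 24h against 0h with summed libraries, 0.010 at 7d against 24h with the block, and -0.015 for shRcor2-20 with library size only. Without each library in turn, further values turned sign, and not all of them were near 0. Without the first shScramble sample at 7d, the hairpin difference of Clcf1 at 7d went from -0.36 to 0.37. The change of its hairpin difference went from -0.35 to 0.37. The range of Rela was -0.073 to 0.024 for 7d versus 24h, -0.28 to 0.0091 for both hairpins at 24h and -0.10 to 0.19 for the change of the hairpin difference. The range of Nfkbiz was -0.12 to 0.072 for both hairpins at 24h. The range of Clcf1 was -0.28 to 0.12 for both hairpins over all times, -0.12 to 0.10 for both hairpins at 24h, -0.84 to 0.37 for both hairpins at 7d, -0.20 to 0.20 for shRcor2-18 over all times, -0.36 to 0.044 for shRcor2-20 over all times and -0.83 to 0.37 for the change of the hairpin difference. The range of Il1rap was -0.053 to 0.27 for 7d versus 0h, -0.011 to 0.30 for both hairpins at 7d and -0.29 to 0.049 for the change of the hairpin difference. The range of Peli3 was -0.46 to 0.29 for 24h versus 0h, -0.51 to 0.12 for 7d versus 0h, -0.26 to 0.27 for 7d versus 24h, -0.33 to 0.14 for both hairpins over all times, -0.27 to 0.25 for shRcor2-18 over all times, -0.43 to 0.11 for shRcor2-20 over all times and -0.26 to 0.53 for the change of the hairpin difference. The cause of these changes was not tested. Nfkbiz at 7d against 0h was called in 14 of 23 alternatives, with a log2 change of -1.55 to -0.77, and in none did it turn; Clcf1 was called in 6 and Rela in 3. The depth of 3504808 to 6139315 reads limits Peli3, Il1rap and above all Unc93b1.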
